A study of Homo sapiens with 6 samples.

Results

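The 10 genes examined here encode the cyclin-dependent kinases (CDKs) that drive the cell cycle, CDK1, CDK2, CDK4 and CDK6, the kinase that activates them, CDK7, the small CDK-binding proteins CKS1B and CKS2, and the phosphatases CDC25A, CDC25B and CDC25C. They were selected by gene symbol, and all 10 were found among the 21447 genes to which the deposited transcripts could be assigned. Expression was measured by bulk RNA-seq in U-2 OS cells, an established human osteosarcoma cell line. The 3 untreated libraries, numbered 1 to 3, came from cells that received no ionizing radiation (IR), and 3 came from cells collected 24 h after 4 Gy of IR. No other treatment or genetic change distinguished the groups in the sample labels. The methods describe triplicate, independent samples per group, and P values refer to the spread between these libraries.

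CDKs are inactive until a cyclin binds them, with CDK4 and CDK6 partnered by D-type cyclins in G1 phase, CDK2 by cyclins E and A around S phase, and CDK1 by cyclins A and B in G2 phase and mitosis. CDK7, together with cyclin H and MNAT1, phosphorylates the activating loop of the other CDKs, and CKS proteins dock on CDK complexes and steer them to phosphorylated substrates. WEE1 and PKMYT1 hold CDK1 inactive by phosphorylation, CDC25 phosphatases remove that block, and the checkpoint kinases activated by DNA damage act on CDC25 proteins, largely through their stability and location rather than their mRNA. Many genes of G2 phase and mitosis carry a cell cycle homology region (CHR) and CCAAT boxes before their start sites, whereas genes of the G1/S transition often carry E2F sites.

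The 250 bases before 1 annotated start of each member were searched on both strands for CCAAT and for the CHR letters TTTGAA and TTCGAA. The GC box GGGCGG and the E2F letters TTTCCCGC, TTTGGCGC, TTTCGCGC and TTTGCCGC were searched for as well. RefSeq windows (GRCh38.p14) were found for 9 of the 10 members, with CDK2 the exception. The window used was the nearest to the start of the transcript with the largest mean share of the gene's counts. It ended at that start except in CDC25B, 179 bases away, and in CDK6, 42 bases away. A CHR match was present in 4 of them, CDK1, CKS1B, CKS2 and CDC25C, whereas 14.6% of 27305 windows, 1 per gene, held one. For this and the other shares of all windows, the first listed window of each gene was taken, expressed or not. Members and all genes were thus picked by different rules. CDK1 had 2 such matches and the other members 1 each. In CKS1B and CDC25C the CHR match began 30 bases before the start, in CKS2 29 bases before it, and in CDK1 13 and 69 bases before it. Each of these 4 windows also held CCAAT upstream of its CHR match, with 1 CCAAT in CDC25C, 2 in CDK1, 3 in CKS2 and 5 in CKS1B, and 33.0% of all windows held at least 1. E2F letters, found in 2.79% of all windows, were present in CDC25A, starting 44 bases before the start, and in CDK1, starting 128 bases before it. The window of CDC25A, without a CHR match, also held 2 CCAAT. GC boxes were the only match in CDK4, CDK7 and CDC25B, with 3, 1 and 5 copies, 2 of the copies in CDC25B overlapping each other, and 42.3% of all windows held at least 1. The window of CDK6 held none of the 4 motifs. These matches are descriptions of letters and do not show that a factor is bound. The windows of the 4 members with a CHR match and of CDC25A are given 5′ to 3′, with every match in capitals. They were chosen after the values were seen, to set members that passed the test for IR beside members that did not. The window of CDK6, which also passed that test but held none of the 4 motifs, is not printed. Members were not tested against each other. The windows of CDK1 and CKS1B reach into other annotated transcripts of these genes, whose annotated spans start within the windows, at 60778331 and 154974653. Those of CDK7 and CDC25B also reach into the spans of their genes, which start at 69234795 and 3786772. For CDK4 and CDK6 the window lies wholly within the span of the gene. The window of CDC25C lies wholly within the annotated span of the gene, which reaches 138338355, and overlaps FAM53C, which starts at 138331935.
CDK1 (chr10:60778228-60778477, plus strand): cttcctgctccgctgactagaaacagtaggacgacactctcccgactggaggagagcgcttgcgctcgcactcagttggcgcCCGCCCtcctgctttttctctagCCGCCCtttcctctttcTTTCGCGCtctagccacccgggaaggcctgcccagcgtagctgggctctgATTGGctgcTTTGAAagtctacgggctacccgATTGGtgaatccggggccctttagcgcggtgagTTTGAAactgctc
CKS1B (chr1:154974431-154974680, plus strand): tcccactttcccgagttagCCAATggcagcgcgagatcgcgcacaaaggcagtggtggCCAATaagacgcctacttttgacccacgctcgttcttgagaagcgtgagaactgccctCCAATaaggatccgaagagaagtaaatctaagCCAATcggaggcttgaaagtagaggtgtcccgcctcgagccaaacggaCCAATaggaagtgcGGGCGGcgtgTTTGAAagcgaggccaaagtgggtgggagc
CKS2 (chr9:89310945-89311194, plus strand): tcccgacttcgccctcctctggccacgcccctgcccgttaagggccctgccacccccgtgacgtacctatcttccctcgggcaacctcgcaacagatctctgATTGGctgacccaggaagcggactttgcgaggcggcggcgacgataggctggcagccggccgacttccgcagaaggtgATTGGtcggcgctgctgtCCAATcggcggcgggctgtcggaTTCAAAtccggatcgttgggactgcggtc
CDC25C (chr5:138331805-138332054, minus strand): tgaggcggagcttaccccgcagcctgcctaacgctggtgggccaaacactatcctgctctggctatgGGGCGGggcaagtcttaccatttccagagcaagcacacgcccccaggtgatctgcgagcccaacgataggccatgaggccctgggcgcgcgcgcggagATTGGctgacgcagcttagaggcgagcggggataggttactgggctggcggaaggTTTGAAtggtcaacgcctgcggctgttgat
CDC25A (chr3:48188418-48188667, minus strand): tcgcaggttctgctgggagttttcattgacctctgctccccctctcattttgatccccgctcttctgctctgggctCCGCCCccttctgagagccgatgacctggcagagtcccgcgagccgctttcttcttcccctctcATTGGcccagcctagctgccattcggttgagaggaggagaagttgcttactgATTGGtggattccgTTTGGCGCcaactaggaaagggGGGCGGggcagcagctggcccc

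Sequencing depth was between 18573309 and 22953834 estimated counts per library, except for IR replicate 3 with 45308792, whose values therefore carry the smallest counting error. IR replicate 3 also stood apart over all genes, with a chi-square per gene of 29.1 and 32.3 against IR replicates 1 and 2, compared with 5.96 between those 2 and 3.46 to 9.22 among the untreated libraries, a measure that grows with depth. CDKN1A, which encodes the CDK inhibitor p21 and is induced by p53, served as a check of the treatment and had 122, 124 and 120.3 normalized counts (CPM, with library sizes scaled by TMM) in untreated replicates 1 to 3 and 322, 341 and 390.0 CPM after IR. VIM, COL1A1 and SPARC dominated the mesenchymal and bone lineage markers, which summed to between 6087 and 6542 CPM in untreated and to between 6440 and 7156 CPM in IR libraries, with BGLAP and IBSP, markers of mature osteoblasts, at most 0.244 CPM. COL1A2 reached at most 2.14 CPM in any library. Of the 7 markers in this list that were tested, RUNX2 was lower after IR, with means of 15.8 and 12.3 CPM, and ALPL higher, with 1.87 and 4.00 CPM (edgeR adjusted P of 0.025 and 0.00716). COL1A1 passed the test, as lower, only after each library was corrected for its trend with GC content (log2 fold change -0.20, edgeR adjusted P = 0.0323). The 5 epithelial markers summed to at most 24.0 CPM and the 6 blood and endothelial markers to at most 2.09 CPM in any library, with CD3E and HBB at 0 in all 6. Of the 4 epithelial markers tested, CDH1 was higher after IR, with means of 2.07 and 3.20 CPM (edgeR adjusted P = 0.0465). With the GC trend removed it was called as well (edgeR adjusted P = 0.0498). Among all 14323 genes tested by edgeR's quasi-likelihood test with Benjamini–Hochberg adjustment, 30.1% had an adjusted P below 0.05 (referred to as called), 15.5% being higher and 14.5% lower after IR. The fold changes followed GC content, since in the eighth of genes with the lowest GC 3.63% were higher and 32.7% lower, and in the highest eighth 45.1% were higher and 0.614% lower.

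After IR, 3 of the 10 members had lower transcript levels, CDK6, CDC25A and CDC25C, and none was called higher. CDK6 fell by 21.5%, CDC25A fell by 17.9% and CDC25C fell by 18.1%. Read against the background of 14.5% of all tested genes that were lower, this is a count of 3 among 10, and the members' median log2 fold change was -0.07, compared with 0.01 for all tested genes. After each library was corrected for its GC trend, the same 3 members were called lower and CDK7 higher, when 12.6% of all tested genes were lower and 11.7% higher. Without IR replicate 3, the 3 members were called as well, but when any other single library was left out only 1 or 2 were. All 10 members were expressed well above the filter on low counts, from 347 estimated counts for CDC25C in the shallowest case to 11829 for CDK4. In 5 members, CDK1, CDK6, CKS2, CDC25A and CDC25C, every IR library lay below every untreated library, as was so for 23.3% of all tested genes. Of the 4 members with a CHR match, CDC25C was called and CDK1, CKS1B and CKS2 were not, and of the 2 with E2F letters CDC25A was called and CDK1 was not. In these bulk samples, fewer cells in a given phase of the cycle and less RNA per cell cannot be told apart.

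**Figure D1:**
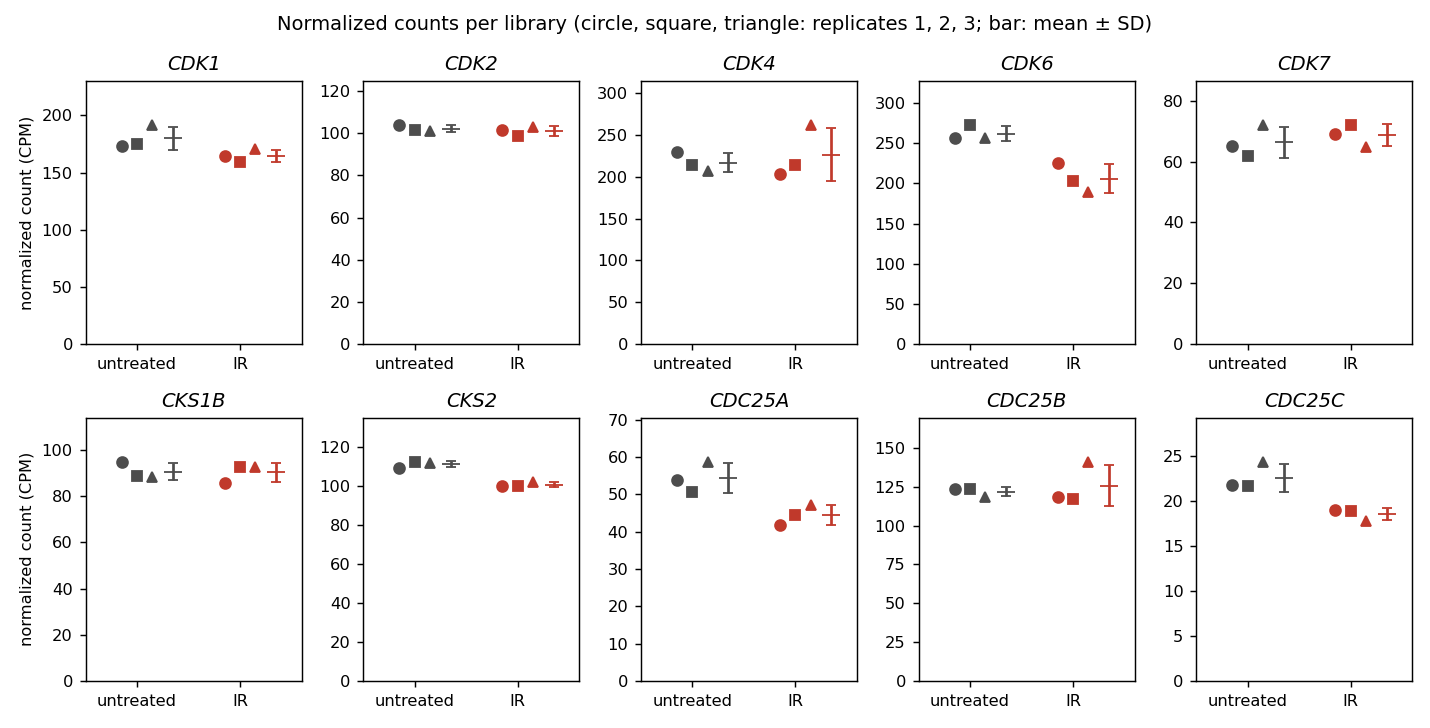
Normalized counts (CPM, vertical axes from 0, scaled per gene) of the 10 members in each untreated library (grey) and each library 24 h after 4 Gy of IR (red); the bar beside each group is the mean ± SD of 3 libraries. CDK6, CDC25A and CDC25C, and also CDK1 and CKS2, which were not called, show separated groups with a lower IR mean. In CDK4 and CDC25B IR replicate 3 lies above all other libraries.

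CDK1, the mitotic kinase (chromosome 10, 60778331–60794852, GRCh38), had 173, 175 and 192 CPM in untreated replicates 1 to 3 and 164, 159 and 170.3 CPM in IR replicates 1 to 3. All IR libraries lay below all untreated libraries, but by little compared with the spread among the untreated ones. The log2 fold change of -0.13 (SE 0.07, 95% confidence interval -0.27 to 0.02) did not pass the test (edgeR adjusted P = 0.169). CDK1 has a GC content of 35.6%, in the lowest eighth of all genes, and removal of the GC trend from each library turned its log2 fold change to 0.11 (edgeR adjusted P = 0.284). Its leading transcript, CDK1-203, held 89.4 to 93.0% of the counts of the gene in untreated and 89.4 to 92.8% in IR libraries.

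CDK2, the kinase of S-phase entry and progression (chromosome 12, 55966781–55972789), had 104, 102 and 101 CPM in untreated and 102, 98.6 and 103 CPM in IR libraries. The groups overlapped, and the confidence interval of its log2 fold change, -0.15 to 0.12 around -0.01, lay on both sides of 0 (edgeR adjusted P = 0.874). In the ratio of CDK1 to CDK2 within a library, which does not depend on scaling between libraries, the log2 values were 0.74, 0.78 and 0.93 in untreated and 0.69, 0.69 and 0.72 in IR libraries. The IR values lay below the untreated values, with a difference of -0.11 in the means (two-sided exact permutation P = 0.1, the smallest that 3 libraries against 3 allow, and 0.167 after adjustment over 5 ratios). Taken from the deposited TPM values, the same ratio differed by -0.12 (exact permutation P = 0.8). Ratios still carry the GC trend where the genes of a pair differ in GC content, and with that trend removed, an alternative chosen after seeing the data, the groups overlapped and the difference turned to 0.10 (exact permutation P = 0.2).

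The G1-phase kinases CDK4 and CDK6, which share their D-type cyclin partners and the retinoblastoma protein as main substrate, differed in their values. CDK6 (chromosome 7, 92604921–92836573, minus strand) had 256, 273 and 257 CPM in untreated and 225, 203 and 189 CPM in IR libraries. The groups were separated, with every IR library below the lowest untreated library. It had a log2 fold change of -0.35 (SE 0.07, 95% confidence interval -0.51 to -0.18, edgeR adjusted P = 0.00742), the largest change among the members in the TMM-scaled fit. Like CDK1 it belongs to the eighth of genes with the lowest GC content (40.1%), and with the GC trend removed the log2 fold change was -0.19 (edgeR adjusted P = 0.0413). The call was lost with the effective transcript lengths as an offset, at a log2 fold change of -0.34 (edgeR adjusted P = 0.0538).

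CDK4 (chromosome 12, 57747727–57756013, minus strand) had 229, 214 and 206 CPM in untreated libraries and 203, 214 and 262 CPM after IR. Its groups overlapped, with IR replicate 1 the lowest and IR replicate 3 the highest of the 6 libraries. The log2 fold change was 0.07 (SE 0.09, 95% confidence interval -0.14 to 0.28, edgeR adjusted P = 0.627), and without IR replicate 3 it was -0.06. CDK4 shares 1369 of its 3094 exon bases with TSPAN31, a tetraspanin gene on the opposite strand, and 39.4% of its 31-base sequence words also occur in other genes. TSPAN31 itself was higher after IR, at 17.5, 17.7 and 19.8 CPM in untreated and 20.8, 22.1 and 25.0 CPM in IR libraries (edgeR adjusted P = 0.0347). Whether reads were counted by strand is not given in the sources used here, so the levels of CDK4 and TSPAN31 are uncertain to the extent that reads from the shared bases could have been assigned to either.

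The ratio of CDK6 to CDK4 within a library had log2 values of 0.16, 0.35 and 0.31 in untreated libraries and 0.15, -0.08 and -0.47 after IR. All IR values were below all untreated values, the closest pair being replicate 1 of each group, and the IR libraries were spread more widely. The means differed by -0.41 (two-sided exact permutation P = 0.1, adjusted over 5 ratios 0.167), and by -0.24 without IR replicate 3. CDK6 and CDK4 differ in GC content, 40.1% against 56.6%, and with the GC trend removed the groups overlapped and the difference was -0.11 (exact permutation P = 0.5). By CPM, CDK6 exceeded CDK4 in every untreated library, but CDK6 transcripts are long, with mean effective lengths of 9794 to 9942 bases in untreated libraries against 837 to 968 bases for CDK4. Per length, in deposited TPM, CDK4 was far more abundant, with 306 ± 19.2 TPM (SD, n = 3) against 33.9 ± 1.57 TPM for CDK6 in untreated libraries.

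CDK7 (chromosome 5, 69234795–69277430), the catalytic subunit of the CDK-activating kinase and of the transcription factor TFIIH, had 65.0, 61.9 and 72.0 CPM in untreated and 68.9, 72.0 and 64.9 CPM in IR libraries. The groups overlapped, and the log2 fold change was 0.05 (SE 0.08, 95% confidence interval -0.12 to 0.22, edgeR adjusted P = 0.673). CDK7 has the same rounded GC content as CDK6, 40.1%, and was the single member that gained a call with the GC trend removed, at a log2 fold change of 0.21 (edgeR adjusted P = 0.0332). Its partners CCNH, with a log2 fold change of 0.04, and MNAT1, with -0.19, did not pass the test either (edgeR adjusted P of 0.801 and 0.151). With the GC trend removed CCNH, like CDK7, was called, at 0.21 (edgeR adjusted P = 0.0477), and MNAT1 was not (edgeR adjusted P = 0.981).

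**Figure D2:**
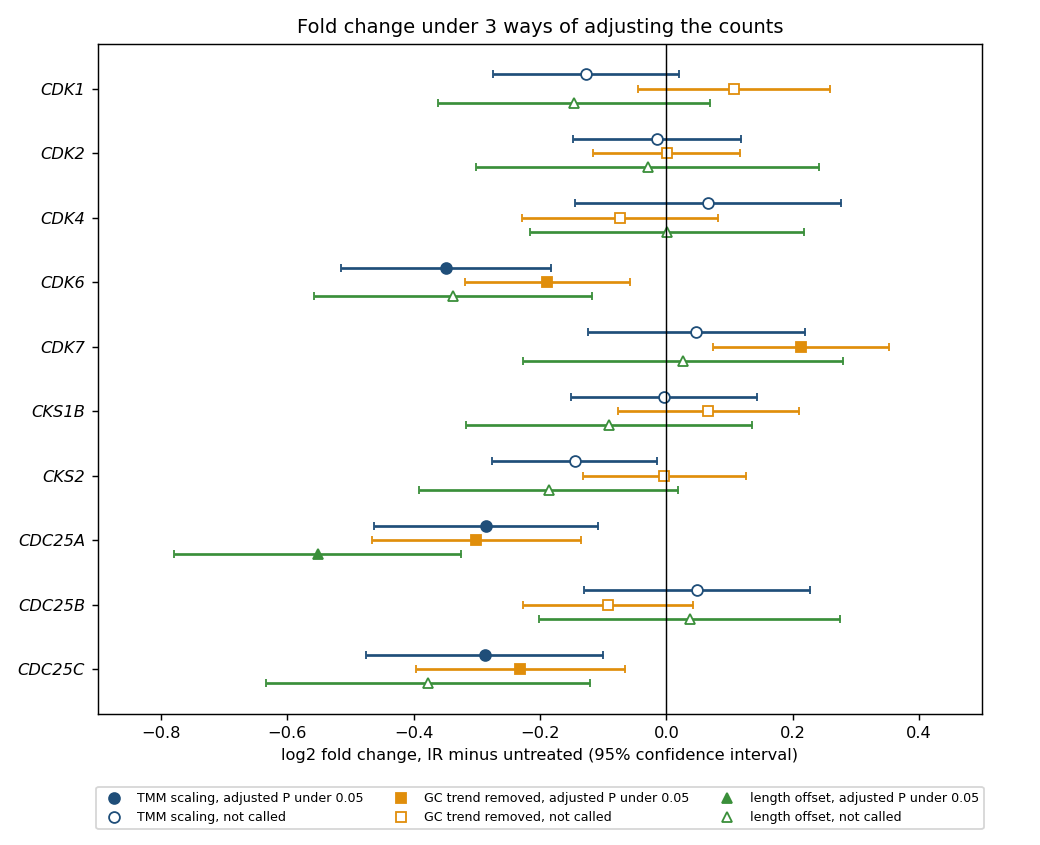
Log2 fold change (IR minus untreated, horizontal axis, with 95% confidence intervals) of each member with TMM scaling (circles), after removal of the GC trend of each library (squares) and with effective transcript lengths as an offset (triangles); filled symbols have an adjusted P below 0.05. CDK6, CDC25A and CDC25C lie below 0 in all 3 fits, CDK1 changes sign with the GC trend removed, and CDC25A moves from -0.28 to -0.55 with the length offset.

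The CKS proteins are small adaptors, and CKS1B is in addition required by the SKP2 ubiquitin ligase to recognize the CDK inhibitor CDKN1B (p27). CKS1B (chromosome 1, 154974653–154979251) had 95.04, 88.6 and 88.5 CPM in untreated and 85.7, 92.8 and 92.8 CPM in IR libraries. The groups overlapped and their means, 90.7 ± 3.73 and 90.4 ± 4.13 CPM (SD, n = 3 each), differed by less than the SD of either group. The 95% confidence interval of the log2 fold change ran from -0.15 to 0.14 (edgeR adjusted P = 0.973).

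CKS2 (chromosome 9, 89311195–89316703), with a single annotated transcript, had 109, 112 and 112 CPM in untreated and 99.7, 99.7 and 102 CPM in IR libraries. Libraries of the same group were nearly alike, and all IR libraries lay below all untreated ones, although the log2 fold change of -0.15 (SE 0.06, 95% confidence interval -0.28 to -0.01) did not pass the adjusted test (edgeR adjusted P = 0.0874). With the GC trend removed its log2 fold change was -0.0031. The within-library log2 ratio of CKS2 to CKS1B was 0.20, 0.34 and 0.34 in untreated and 0.22, 0.10 and 0.14 in IR libraries. These ranges overlapped through untreated replicate 1 and IR replicate 1, and the difference of -0.14 in the means did not pass the test (two-sided exact permutation P = 0.2, adjusted over 5 ratios 0.25). It was -0.07 with the GC trend removed.

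CDC25A and CDC25C decreased and CDC25B did not pass the test. CDC25A (chromosome 3, 48157146–48188417, minus strand), the phosphatase best known for the G1/S transition and for its degradation after DNA damage, had 53.8, 50.5 and 58.7 CPM in untreated and 41.8, 44.5 and 47.2 CPM in IR libraries. The groups were separated. Its log2 fold change was -0.28 (SE 0.08, 95% confidence interval -0.46 to -0.11, edgeR adjusted P = 0.0232). Removal of the GC trend left this value at -0.30 (edgeR adjusted P = 0.0163). The call was lost without untreated replicate 1 (edgeR adjusted P = 0.0677), untreated replicate 3 (0.0868), IR replicate 1 (0.0521) or IR replicate 2 (0.0639), with log2 fold changes between -0.23 and -0.29 in these fits.

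The change of CDC25A was larger per length. Its mean effective length was 2690 to 3101 bases in untreated libraries and 3243 to 3653 bases in IR libraries, and with these lengths as an offset its log2 fold change was -0.55 (edgeR adjusted P = 0.014). Its 2 short transcripts had smaller shares of its counts after IR. CDC25A-205, with no coding sequence defined, held 3.93, 5.76 and 4.02% of the counts of the gene in untreated and 2.49, 2.81 and 0% in IR libraries. CDC25A-204 held 5.57, 4.98 and 3.64% in untreated and 1.43, 3.11 and 1.83% in IR libraries. Neither change of share passed a test in edgeR's diffSpliceDGE (unadjusted P of 0.196 and 0.288). The part of these transcripts in the change of effective length was not tested. The 2 long transcripts, of 3844 and 3663 bases, traded places between libraries of the same group, CDC25A-201 holding 30.4, 52.6 and 67.7% in untreated and 61.2, 58.7 and 63.8% in IR libraries.

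CDC25C (chromosome 5, 138285269–138338355, minus strand), the phosphatase that helps activate CDK1 at the entry into mitosis, was the least abundant member by counts. It had 21.7, 21.7 and 24.4 CPM in untreated and 19.0, 18.9 and 17.8 CPM in IR libraries. The groups were separated, with the IR libraries close together. Its log2 fold change was -0.29 (SE 0.08, 95% confidence interval -0.47 to -0.10, edgeR adjusted P = 0.0278). The call was lost without untreated replicate 1, 2 or 3 or IR replicate 2 (log2 fold changes of -0.31, -0.32, -0.23 and -0.30, edgeR adjusted P of 0.0605, 0.0572, 0.0902 and 0.0633), and with the length offset, where the log2 fold change was -0.38 (edgeR adjusted P = 0.0604). CDC25C shares 293 exon bases with FAM53C on the opposite strand, which had a log2 fold change of -0.13 (edgeR adjusted P = 0.197).

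CDC25B (chromosome 20, 3786772–3806121), which acts at the onset of mitosis, had 123.5, 123.3 and 118 CPM in untreated and 119, 117 and 141 CPM in IR libraries. The groups overlapped, and IR replicate 3 stood above the other 5 libraries, as it did for CDK4. These are the members with the highest GC content, 56.7% for CDC25B and 56.6% for CDK4, and with the GC trend removed their log2 fold changes were -0.09 and -0.07. IR replicate 3 is also the library with the greatest depth, whose part in these values was not tested. The log2 fold change of CDC25B was 0.05 (SE 0.08, 95% confidence interval -0.13 to 0.23, edgeR adjusted P = 0.681), and it was -0.06 without IR replicate 3.

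Relative to CDC25A within each library, CDC25B had log2 ratios of 1.198, 1.29 and 1.01 in untreated and 1.504, 1.40 and 1.58 in IR libraries. Every IR value was above every untreated value, and the means differed by 0.33 (two-sided exact permutation P = 0.1, adjusted over 5 ratios 0.167). The difference was 0.58 when taken from deposited TPM and 0.20 with the GC trend removed, with separated groups and an exact permutation P of 0.1 in both. The ratio of CDC25C to CDC25A, with log2 values of -1.31, -1.22 and -1.27 in untreated and -1.14, -1.24 and -1.41 in IR libraries, overlapped between the groups, and its mean differed by 0.0039 (exact permutation P = 1). Taken from deposited TPM, that last ratio differed by 0.18 (exact permutation P = 0.1).

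Per length, in deposited TPM, the members differed widely in level. In untreated libraries CKS2 was highest at 429 ± 14.5 TPM (SD, n = 3 here and below), followed by CDK4 at 306 ± 19.2, CKS1B at 219 ± 15.4 and CDK1 at 194 ± 16.4 TPM, the last 2 of which overlapped. CDK7 at 107 ± 9.57, CDK2 at 64.3 ± 7.67, CDC25B at 53.0 ± 0.860, CDK6 at 33.9 ± 1.57, CDC25A at 24.2 ± 0.207 and CDC25C at 19.7 ± 1.21 TPM followed, with no overlap between neighbours in this order. The order was the same after IR, from CKS2 at 365 ± 9.68 TPM to CDC25A at 15.96 ± 1.21 and CDC25C at 14.7 ± 0.840 TPM. After IR CDC25A overlapped with CDC25C, and CDK2, at 61.2 ± 9.44 TPM, overlapped with CDC25B, at 52.8 ± 9.28 TPM.

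Of the 9 members with more than 1 transcript, none passed the test of transcript usage by edgeR's diffSpliceDGE (0 with an adjusted P and 0 with an unadjusted P below 0.05), against a background of 2.67% of the genes tested. These are P values per gene, the lowest of which was that of CDK4, 0.162. A CDK4 transcript annotated as a target of nonsense-mediated decay held 0, 0 and 1.76% of the counts of the gene in untreated and 6.41, 1.76 and 14.6% in IR libraries (unadjusted P = 0.0135 for this transcript alone). The highest untreated and the lowest IR value were alike, and the share in IR replicate 3 stood apart. In that library CDK4-203 held 3.14% against 11.8 to 17.0% in the other 5, and CDK4-214 held 0.550% against 11.996 to 14.5%. For CDC25B the leading transcript CDC25B-203 held between 57.8 and 79.4% in untreated and between 40.8 and 75.0% in IR libraries.

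Among the regulators and relatives of these genes, the cyclins moved in both directions. Of 10 cyclins and CDK7 partners tested, 2 were higher and 2 lower, where 15.5% and 14.5% of all tested genes were, the median log2 fold change being 0.01. There were 3 higher, CCNH in addition, and 2 lower with the GC trend removed, where 11.7% and 12.6% of all tested genes were, with a median of 0.04. The D-type cyclins CCND2 and CCND1, partners of CDK4 and CDK6, rose by 0.63 and 0.52 on the log2 scale (edgeR adjusted P of 0.000291 and 0.000916). CCND2 had 135, 132 and 139 CPM in untreated and 206, 202 and 219.9 CPM in IR libraries, with no overlap. CCNE2 and CCNA2, partners of CDK2 and, for CCNA2, also of CDK1, fell by 0.71 and 0.44 (edgeR adjusted P of 0.000925 and 0.0028). The mitotic cyclin CCNB1, with a log2 fold change of -0.02, and CCNB2, with -0.08, did not pass the test (edgeR adjusted P of 0.868 and 0.372).

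Of 21 inhibitory kinases and controllers of CDC25, 1 was higher and 9 were lower, where 15.5% and 14.5% of all tested genes were, and the median of their log2 fold changes was -0.19. With the GC trend removed 0 were higher and 4 lower (BORA, AURKA, PLK1 and PKMYT1), where 11.7% and 12.6% of all tested genes were, with a median of -0.11. PKMYT1 changed sign between the fits, from a log2 fold change of 0.23 (edgeR adjusted P = 0.212) to -0.24 (edgeR adjusted P = 0.0346). BORA, the activator of AURKA, fell by 0.49, AURKA itself by 0.29 and PLK1, which they activate and which promotes CDC25C activity, by 0.24 on the log2 scale (edgeR adjusted P of 0.00363, 0.00719 and 0.0153). WEE1, which opposes CDC25 on CDK1 and CDK2, fell from 66.5, 66.4 and 66.4 CPM in untreated to 56.0, 49.2 and 54.6 CPM in IR libraries, by 0.32 on the log2 scale (edgeR adjusted P = 0.0085), but with the GC trend removed it was not called (edgeR adjusted P = 0.137), nor were CHEK1, MASTL, YWHAE, YWHAG and YWHAZ (edgeR adjusted P between 0.0649 and 0.442). The single gene that rose, SFN, encodes 14-3-3 sigma, which retains CDK1 complexes in the cytoplasm after DNA damage, and had a log2 fold change of 0.48 (edgeR adjusted P = 0.00967). SFN too was not called with the GC trend removed (edgeR adjusted P = 0.292).

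Of 8 CDK inhibitors, 7 were tested, of which 2 rose and 2 fell, against 15.5% and 14.5% of all tested genes, the median log2 fold change being -0.17, and CDKN2A was listed at 0 in all 6 libraries. CDKN1A rose by 1.53 on the log2 scale (edgeR adjusted P = 2.82e-05) and CDKN1C, at most 3.54 CPM in any library, by 0.92 (edgeR adjusted P = 0.0352), although CDKN1C was not called with the GC trend removed (edgeR adjusted P = 0.0644). In that fit 1 inhibitor was higher and 3 lower, CDKN2D in addition, where 11.7% and 12.6% of all tested genes were, with a median of -0.28. CDKN1B, which inhibits CDK2 and is degraded through SKP2 and CKS1B, had 59.4, 58.9 and 69.4 CPM in untreated and 48.0, 45.2 and 45.2 CPM in IR libraries, and fell by 0.44 on the log2 scale (edgeR adjusted P = 0.00365). CDKN2C, an inhibitor of CDK4 and CDK6, fell by 0.57 (edgeR adjusted P = 0.00144). Of the 4 SKP2 ligase partners of CKS1B, 1 was lower, where 14.5% of all tested genes were, with a median of -0.02 for the 4. SKP2 fell from 122.8, 115 and 115 CPM in untreated to 88.7, 82.9 and 84.8 CPM in IR libraries (log2 fold change -0.46, edgeR adjusted P = 0.00117). SKP1, CUL1 and RBX1 did not pass the test. Of 16 other CDKs, 4 were called, compared with 30.1% of all tested genes. Of these 2 rose, CDK5 by 0.53 and CDK18 by 0.37 (edgeR adjusted P of 0.012 and 0.0169, with CDK18 at 0.333 when the GC trend was removed), and 2 fell, CDK19 by 0.51 and CDK12 by 0.43 (edgeR adjusted P of 0.00255 and 0.00482), and the median of the 16, -0.07, was that of the 10 members. After removal of the GC trend 1 was higher and 3 lower, CDK16 in addition, where 11.7% and 12.6% of all tested genes were. The median was then -0.04 for the 16 and for the 10 members.

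The genes whose log2 CPM followed that of CDK1 most closely across the 6 libraries were HSPA1A (Pearson's r = 0.995), CENPV (0.994), ATP2C1 (0.993), ELOVL5 (0.993) and RAD1 (0.988), and 173 genes had an r above 0.9. Each of the 5 had its highest value in untreated replicate 3, as CDK1 did, and none passed the test for IR. Since they were selected by likeness to CDK1 in these same libraries, neither trait is a separate finding. HSPA1A encodes an HSP70 chaperone with a near-identical neighbouring copy, so its counts are uncertain, and RAD1 encodes a subunit of the checkpoint clamp loaded at DNA damage. For CDC25C the closest genes were PRPS2 (0.997), RNF20 (0.997), KNOP1 (0.996), STRN3 (0.996) and KIF4A (0.995), and 1109 genes had an r above 0.9. KIF4A, a kinesin of mitotic chromosomes, had 149, 153 and 169.6 CPM in untreated and 127, 125 and 117 CPM in IR libraries. These correlations rest on 6 libraries that share the group difference, depth and GC trend, and are descriptions of likeness.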

How the data were processed

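Libraries were grouped by treatment in the sample labels. Reads were trimmed with fastp and pseudoaligned with kallisto to GENCODE release 37 (GRCh38) by the authors, who deposited for every transcript its length, effective length, unnormalized estimated count and TPM (count per effective length, rescaled to a fixed library sum). The labels name poly(A) RNA and the methods a kit for total RNA, and which was used was not resolved.

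Transcripts were matched to GENCODE release 44 by identifier (2460 of 161171 unmatched, 1.54% to 1.80% of counts, left out), and the estimated counts of each gene were added up and rounded to integers. Genes were filtered by filterByExpr, TMM-scaled and tested by edgeR's quasi-likelihood test (R 4.3.3, edgeR 4.0.16), P values being adjusted after Benjamini and Hochberg over 14323 genes and called below 0.05. Standard errors are the log2 fold change over the root of the F statistic. Transcript usage was tested by diffSpliceDGE with Simes P values per gene. Within-library ratios (0.5 added to counts) and single genes were tested by two-sided exact permutation tests over the 6 libraries (SciPy 1.17.1). Scripts were tested on simulated counts. Alternatives were the low-count filter, a replicate block, size factors and Wald test of DESeq2 (1.42.0), the likelihood ratio test of edgeR, removal of each library's lowess trend with GC content (span 0.3), effective lengths as an offset, and omission of each library. Removal of the GC trend from the ratios was added after seeing the data. Replicates of a group differed by more than sampling noise, so none was counted as a copy.

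The members and gene lists were chosen with earlier results of these data known. Named list genes are those of lowest P, up to 4 per list, and a few further genes of the lists, named after their values were seen, because they bind or regulate a member. Promoter sequences are from RefSeq (GRCh38.p14), and the planned minimum fold for printing a promoter was reached by no member. Only the bulk RNA-seq of the study was analysed here, and 1 marker gene is not reported here.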

Additional observations from a re-analysis of the deposited data

How the results depend on the processing

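The number of genes called after IR was 4307, between 3073 and 4611 under 8 of the 9 alternatives that kept all libraries, 1712 with the length offset, and between 2582 (without untreated replicate 1; 2601 without untreated replicate 2) and 4398 (without IR replicate 1) when 1 library was left out. The number of members called was 3, with 1 called under the length offset and 1 under the replicate block with GC trend removed (CDC25A in both), 4 with the GC trend removed (CDK7 in addition, as higher), and between 1 and 3 with 1 library left out. CDK6 was called in 13 of 15 alternatives, CDC25A in 11 and CDC25C in 8, and all 3 were negative throughout. The DESeq2 Wald test called the same 3 members (adjusted P of 0.000117, 0.0118 and 0.0427).

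Directions of uncalled members were not stable. With the GC trend removed, the log2 fold change reversed to 0.11 for CDK1, 0.00055 for CDK2, -0.074 for CDK4, 0.066 for CKS1B and -0.093 for CDC25B, and with the replicate block as well to 0.10 for CDK1, -0.078 for CDK4, 0.065 for CKS1B and -0.10 for CDC25B. With 1 library left out, the log2 fold change lay between -0.039 and 0.0013 for CDK2, -0.063 and 0.12 for CDK4, -0.00017 and 0.11 for CDK7, -0.034 and 0.030 for CKS1B, and -0.056 and 0.094 for CDC25B. CKS2 kept its direction in all 15 alternatives. The mean ratio of CDC25C to CDC25A lay between -0.059 and 0.079 with 1 library left out, and the other 4 ratios kept their direction there and in deposited TPM. With the GC trend removed, an alternative chosen after seeing the data, the ratio of CDK1 to CDK2 reversed to 0.10 and the other 4 ratios kept their direction. Transcript usage called none of the members in any of its 8 alternatives. Unadjusted diffSpliceDGE P values per gene fell below 0.05 for CDC25A with at least 10 counts in every library (0.031) and for CDC25B without untreated replicate 2 (0.0128). For CDK4 they did so without untreated replicate 3 (0.00605) and without IR replicate 3 (0.0186).

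Replicate numbers are shared between groups, but nothing says that they mark a batch. Deviations of same-numbered libraries from their group means correlated by only -0.02, 0.0072 and -0.05. No pairing by number was seen, although 3 libraries per group cannot exclude it. With the replicate block, 3351 genes and 2 members, CDK6 and CDC25A, were called, and CDC25C was not (-0.29, edgeR adjusted P = 0.063). Where an alternative changed a call, the cause was not tested.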
